A study of Mus musculus with 8 samples.

Results

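Lysosomal enzymes and membrane proteins were followed through sorted lung epithelial cells as a list of 41 genes chosen by symbol for their lysosomal role, all found among the 43432 Ensembl genes of the count table. The list holds 10 proteases, 10 glycosidases, 4 sulfatases, 5 lipid enzymes and carriers, 7 membrane proteins, 3 proton pump subunits and 2 transcription factors. RNA sequencing was done on EpCAM+CD45- lung cells, an epithelial gate without leukocytes, of C57BL/6J mice 14 weeks old. The C/C group (n = 2) was homozygous for the ChiaRed allele, and the C/+ group carried it heterozygously (n = 3). From both, the ChiaRed+ fraction of that gate was taken. From WT mice without the allele (n = 3) the whole gate was taken. ChiaRed reports expression of acidic mammalian chitinase, which Chia1 encodes. The WT and reporter groups therefore differ in the sort as well as in genotype, and sort and genotype cannot be told apart. The labels do not say which libraries came from separate animals, so a p-value here reflects library-to-library spread alone, part of which may be technical.

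Lysosomes are acidic organelles in which hydrolases break down proteins, glycans, sulfated sugars and lipids delivered by endocytosis and autophagy. A vacuolar proton pump acidifies them, heavily glycosylated membrane proteins line them, and the factors TFEB and TFE3 bind CLEAR elements, which contain an E-box, in the promoters of many of their genes. In alveolar type 2 cells, which store surfactant, the lamellar body is a lysosome-related organelle that shares part of this protein set.

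Total counts were 41950581 to 46478577 per library in C/C, 17057216 to 30190458 in C/+ and 20232091 to 52319957 in WT. Chia1 stood at 1.45 and 0.365 CPM in the C/C libraries, against 223 to 341 CPM in C/+ and 267 to 454 CPM in WT. The alveolar type 2 marker Sftpc took 163513 to 166725 CPM in C/C, 137228 to 148570 CPM in C/+ and 104356 to 130764 CPM in WT. Of the 12 type 2 markers, Sftpc among them, 8 were lower in C/+ than in WT (median log2 fold change -0.06). In C/C, 8 of the 12 were higher than in WT (median 0.11) and 7 higher than in C/+ (median 0.13). EdgeR called 0 of the 12 in any comparison. DESeq2 called 3 for C/C over WT, against at most 9.46% of all tested genes, and 0 for the others. Over the 20 macrophage and leukocyte markers the summed level was 31.0 to 34.2 CPM in C/C, 32.7 to 45.4 CPM in C/+ and 32.7 to 48.7 CPM in WT, with Itgam, Siglecf, Fcgr1 and Cd3e at 0 in C/C and Adgre1 and Ear1 at 0 in C/+. Of the 12 tested, 11 were lower in C/C than in WT (median log2 fold change -1.70). EdgeR and DESeq2 called 0, and 3 had an unadjusted p under 0.05 (22.1% of all tested genes). The exception, Cd68 (0.64), averaged 11.8 CPM in C/C, 9.22 CPM in C/+ and 7.54 CPM in WT, a large part of the sum. Immediate early and dissociation stress genes summed to 13273 to 17573 CPM in C/C, 4217 to 7015 CPM in C/+ and 3313 to 9440 CPM in WT. The part of these lists in the results on the lysosomal genes was not tested. Xist and Ddx3y counts marked C/+ 1, WT 2 and WT 3 as male and the other libraries as female. CPM values are counts scaled to library size with trimmed mean of M values (TMM) factors, and levels are compared between genes only as CPM per kilobase of annotated exon.

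The promoters of these genes were searched for the E-box CACGTG. RefSeq windows (GRCm38.p6) of 250 bases before to 50 after the annotated start were found for 35 of the 41 genes, and 13 of these 35 (37.1%) had an E-box in at least 1 window, against 8.09% of all 27025 genes with windows. The longer TCACGTGA, which contains the E-box and is the inner part of the CLEAR element, was present in 6 of 35 (17.1%), against 1.12% of all. Both motifs read the same on either strand. Of the 85 matched genes in the other lysosomal lists described further on, 18 (21.2%) had the E-box and 9 (10.6%) had TCACGTGA. The 6 members with TCACGTGA were Ctsa, Ctsd, Gla, Mcoln1, Atp6v0d1 and Atp6v1a. The remaining E-box members were Lamp1, Ctsl, Glb1, Naglu, Gaa, Sgsh and Arsa. The 250 bases before the start are shown for 4 genes with E-boxes from the protease, membrane and pump classes, and for Npc2 and Lipa, the most abundant member and the sole called one. Sequences run 5′ to 3′ on the gene's strand, and capitals mark each E-box.
Ctsd (chr7:142387828-142388077, minus strand): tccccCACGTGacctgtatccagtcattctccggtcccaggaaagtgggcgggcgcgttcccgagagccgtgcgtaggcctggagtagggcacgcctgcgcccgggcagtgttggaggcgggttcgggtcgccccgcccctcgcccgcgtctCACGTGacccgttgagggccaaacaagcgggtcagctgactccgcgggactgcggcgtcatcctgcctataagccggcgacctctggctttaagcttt
Lamp1 (chr8:13158911-13159160, plus strand): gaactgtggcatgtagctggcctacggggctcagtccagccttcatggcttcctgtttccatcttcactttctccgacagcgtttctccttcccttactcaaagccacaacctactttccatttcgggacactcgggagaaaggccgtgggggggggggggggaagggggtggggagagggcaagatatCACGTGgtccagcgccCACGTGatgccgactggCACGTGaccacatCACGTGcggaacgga
Mcoln1 (chr8:3500269-3500518, plus strand): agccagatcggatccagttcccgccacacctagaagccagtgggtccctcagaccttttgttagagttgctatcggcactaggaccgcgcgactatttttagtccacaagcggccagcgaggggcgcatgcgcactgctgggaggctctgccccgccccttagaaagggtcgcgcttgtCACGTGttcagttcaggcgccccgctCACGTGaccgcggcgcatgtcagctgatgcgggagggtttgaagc
Atp6v1a (chr16:44139260-44139509, minus strand): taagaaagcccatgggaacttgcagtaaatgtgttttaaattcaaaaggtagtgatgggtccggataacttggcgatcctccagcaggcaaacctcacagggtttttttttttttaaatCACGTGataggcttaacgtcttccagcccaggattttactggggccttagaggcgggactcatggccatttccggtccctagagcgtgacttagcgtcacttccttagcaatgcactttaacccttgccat
Npc2 (chr12:84773113-84773362, minus strand): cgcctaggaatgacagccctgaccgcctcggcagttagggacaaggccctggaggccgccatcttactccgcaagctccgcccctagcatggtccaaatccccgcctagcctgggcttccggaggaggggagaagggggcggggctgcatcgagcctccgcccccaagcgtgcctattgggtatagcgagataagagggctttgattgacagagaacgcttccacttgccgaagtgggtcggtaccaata
Lipa (chr19:34527475-34527724, minus strand): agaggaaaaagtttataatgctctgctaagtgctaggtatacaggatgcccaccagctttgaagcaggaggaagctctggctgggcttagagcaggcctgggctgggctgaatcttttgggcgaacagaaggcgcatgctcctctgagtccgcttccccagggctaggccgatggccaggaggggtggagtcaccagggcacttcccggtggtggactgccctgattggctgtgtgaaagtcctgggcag

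Lamp1 had 4 E-boxes, beginning 61, 45, 28 and 15 bases before its start, and none was flanked as TCACGTGA. In Ctsd the TCACGTGA-type E-box began 98 bases before the start, in Mcoln1 45 bases and in Atp6v1a 131 bases. These distances are from the RefSeq start. The GENCODE annotation places the starts of Ctsd, Mcoln1 and Atp6v1a further upstream, so that these TCACGTGA-type E-boxes lie inside the GENCODE genes. The whole Atp6v1a stretch shown does so too. Npc2 and Lipa had no such letters in their windows. A match is a description of letters, not a site shown to be bound.

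**Figure D1:**
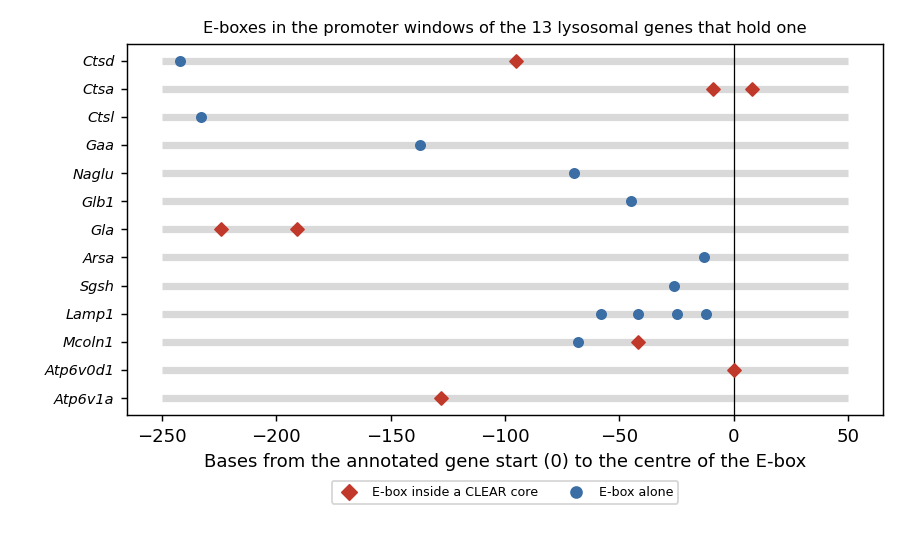
Positions of E-boxes in the promoter windows of the 13 lysosomal genes that hold one. The horizontal axis is the distance in bases from the annotated RefSeq start to the centre of the E-box. Grey bars are the windows, red diamonds are E-boxes inside TCACGTGA and blue circles are other E-boxes. Lamp1 holds 4, and Ctsa and Gla hold theirs inside TCACGTGA.

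Few lysosomal genes passed the edgeR test, and their shares lay near or below the shares over all tested genes. The 41 genes took 1.18% ± 0.0580 of all counts in C/C (SD, n = 2), 1.12% ± 0.0532 in C/+ and 1.15% ± 0.0242 in WT (SD, n = 3 each), and the groups overlapped. Npc2, which encodes a cholesterol-binding protein, held a large part of these counts. Without it, in a sum added after its values were seen, the share was 0.641% and 0.638% in C/C and 0.631%, 0.642% and 0.655% in C/+. In WT it was 0.710%, 0.693% and 0.719%, and every WT library lay above every reporter library in this unscaled share. With TMM scaling the sum without Npc2 overlapped between C/C (6838 and 6976 CPM) and WT (6648 to 6994 CPM). The C/+ libraries, at 6223 to 6568 CPM, stayed below WT. Of the 41, 40 passed the filter on low counts, and Ctse did not. Between C/C and C/+, 1 of the 40 tested members was called at an adjusted p under 0.05, against 7.08% of all 14906 tested genes. It was lower in C/C, where 5.33% of all genes were called lower and 1.75% higher. Between C/+ and WT, 1 of 40 was called, against 3.92% of all tested genes. It was higher in C/+, where 3.42% of all genes were called higher and 0.503% lower. Between C/C and WT, 0 of 40 were called by edgeR, with 7 at an unadjusted p under 0.05, against 2.98% of all tested genes called (1.62% higher and 1.36% lower in C/C). DESeq2 called 4 of 40 (10%) between C/C and WT, against at most 9.46% of all tested genes. It called 1 between C/C and C/+, against at most 10.6%, and 2 between C/+ and WT, against at most 8.23%. DESeq2 was fitted to every gene with a count, so its calls can include genes outside the 14906. These DESeq2 shares over all genes are therefore upper limits. At an unadjusted p under 0.05 there were 4 members for C/C and C/+ (20.9% of all tested genes), 8 for C/+ and WT (20.1%) and 7 for C/C and WT (22.1%). The called member was in both cases Lipa, which encodes the lysosomal acid lipase.

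The size of the differences was small for nearly all other members. The median log2 fold change over the 40 members was 0.07 for C/C over C/+, against -0.01 over all tested genes. It was -0.01 for C/+ over WT, against 0.00 over all, and -0.01 for C/C over WT, against -0.03 over all. The 95% interval of the fold change lay within 2-fold in either direction for 37 of 40 members between C/C and C/+, where this held for 66.2% of all tested genes. The same was true of 37 of 40 between C/+ and WT, against 69.6% of all, and of 36 of 40 between C/C and WT, against 67% of all. Within 1.5-fold the intervals of 31 members lay between C/C and C/+ (45.5% of all tested genes), of 33 between C/+ and WT (49.3%) and of 33 between C/C and WT (40%). In all 3 comparisons the members outside the 2-fold range included Lipa, Ctsk and Ctss, which were at 0.0782 to 5.26 CPM in every library, and between C/C and WT also Gla. The members' median SE on the log2 scale was 0.131, 0.118 and 0.131 for C/C over C/+, C/+ over WT and C/C over WT, against 0.183, 0.165 and 0.182 over all tested genes. Members whose libraries did not overlap between groups numbered 15 of 40 for C/C and C/+ (38.3% of all tested genes), 9 of 40 for C/+ and WT (24.8%) and 18 of 40 for C/C and WT (43.3%), close to the background in each.

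**Figure D2:**
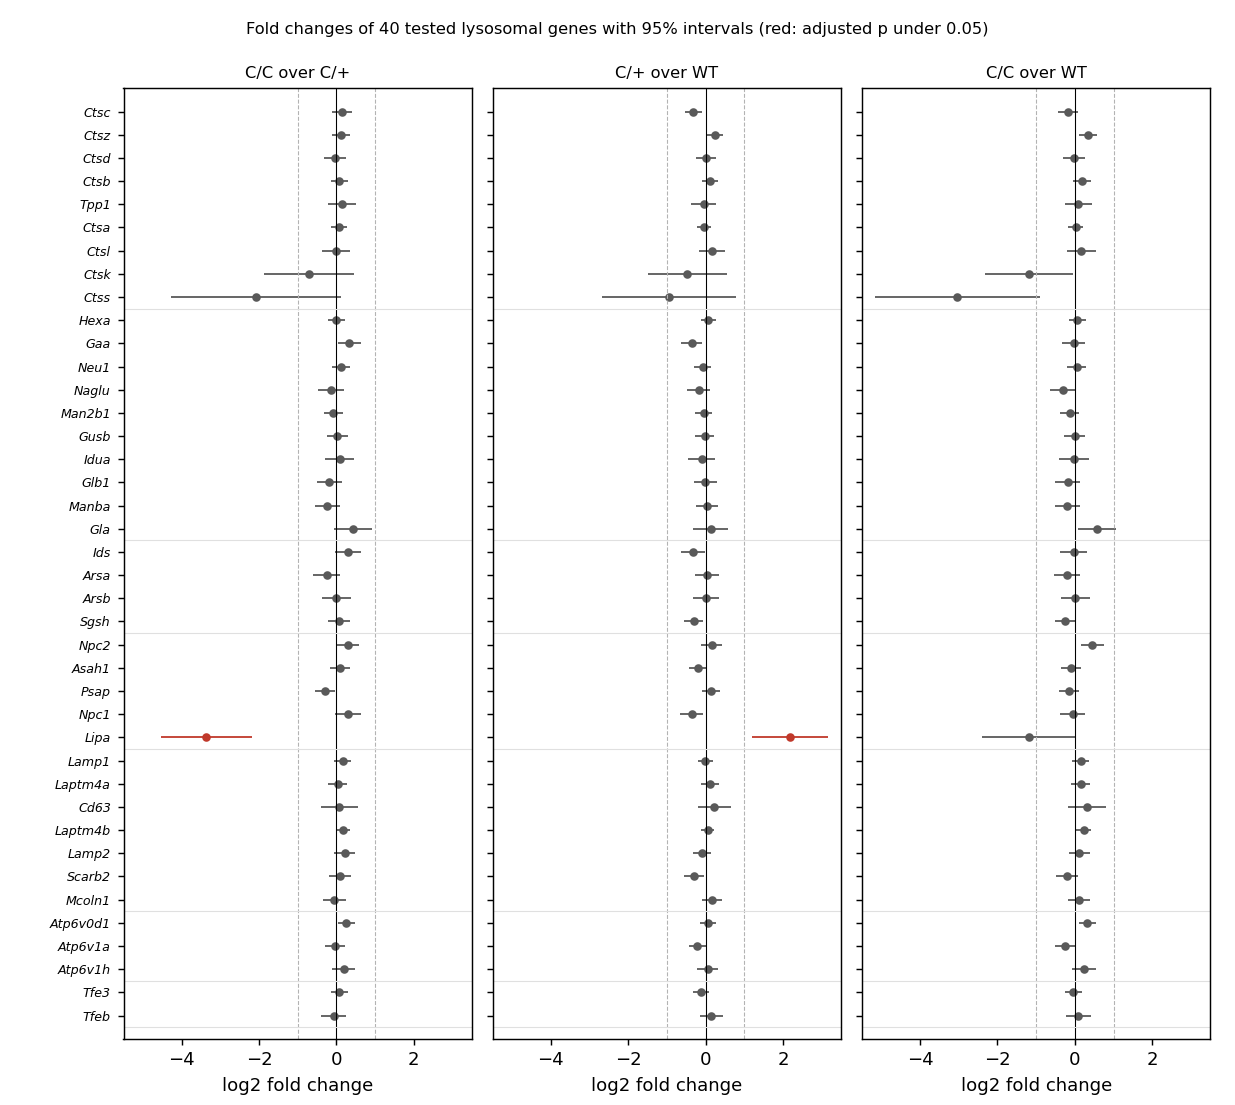
Log2 fold changes of the 40 tested lysosomal genes for C/C over C/+, C/+ over WT and C/C over WT, with 95% intervals as bars. Dashed lines mark 2-fold in either direction and red marks an adjusted p under 0.05. Lipa stands alone in red, at -3.36 for C/C over C/+ and 2.18 for C/+ over WT, and the low-count genes Ctss, Lipa and Ctsk have the widest intervals.

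Sorted by role, the lipid enzymes and carriers had the highest summed level per length. They summed to 1181 ± 90.2 CPM per kilobase in C/C, 984 ± 106 in C/+ and 907 ± 42.3 in WT. Npc2 alone carried this rank, since without it the class summed to 115 ± 1.85 CPM per kilobase in C/C, 114 ± 6.30 in C/+ and 124 ± 8.33 in WT, below the glycosidases and pump subunits. Proteases followed at 725 ± 29.0 CPM per kilobase in C/C, 682 ± 15.5 in C/+ and 701 ± 22.2 in WT, and membrane proteins at 718 ± 8.30 in C/C, 665 ± 6.27 in C/+ and 643 ± 40.7 in WT. Glycosidases and the 3 pump subunits were lower and within their spreads of each other in WT, at 147 ± 3.85 and 145 ± 5.75 CPM per kilobase. The 4 sulfatases summed to 36.3 ± 1.42 CPM per kilobase in WT and the 2 transcription factors to 7.26 ± 0.108. The TMM-scaled sum over all members was 12416 and 12986 CPM in the C/C libraries, 10628 to 11488 CPM in C/+ and 10629 to 11462 CPM in WT, and C/C did not overlap the other groups. That separation rests on the scaling and on Npc2. The unscaled shares of counts given above overlapped, and without Npc2 the TMM-scaled sum was 6838 and 6976 CPM in C/C, 6223 to 6568 CPM in C/+ and 6648 to 6994 CPM in WT. TMM factors were 0.915 and 0.938 in C/C, 0.997 to 1.02 in C/+ and 1.03 to 1.06 in WT. Scaling by total count alone shifts the median of all tested genes by -0.11 on the log2 scale for C/C over C/+ and by -0.17 for C/C over WT, and the members' median is then -0.05 and -0.18.

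**Figure D3:**
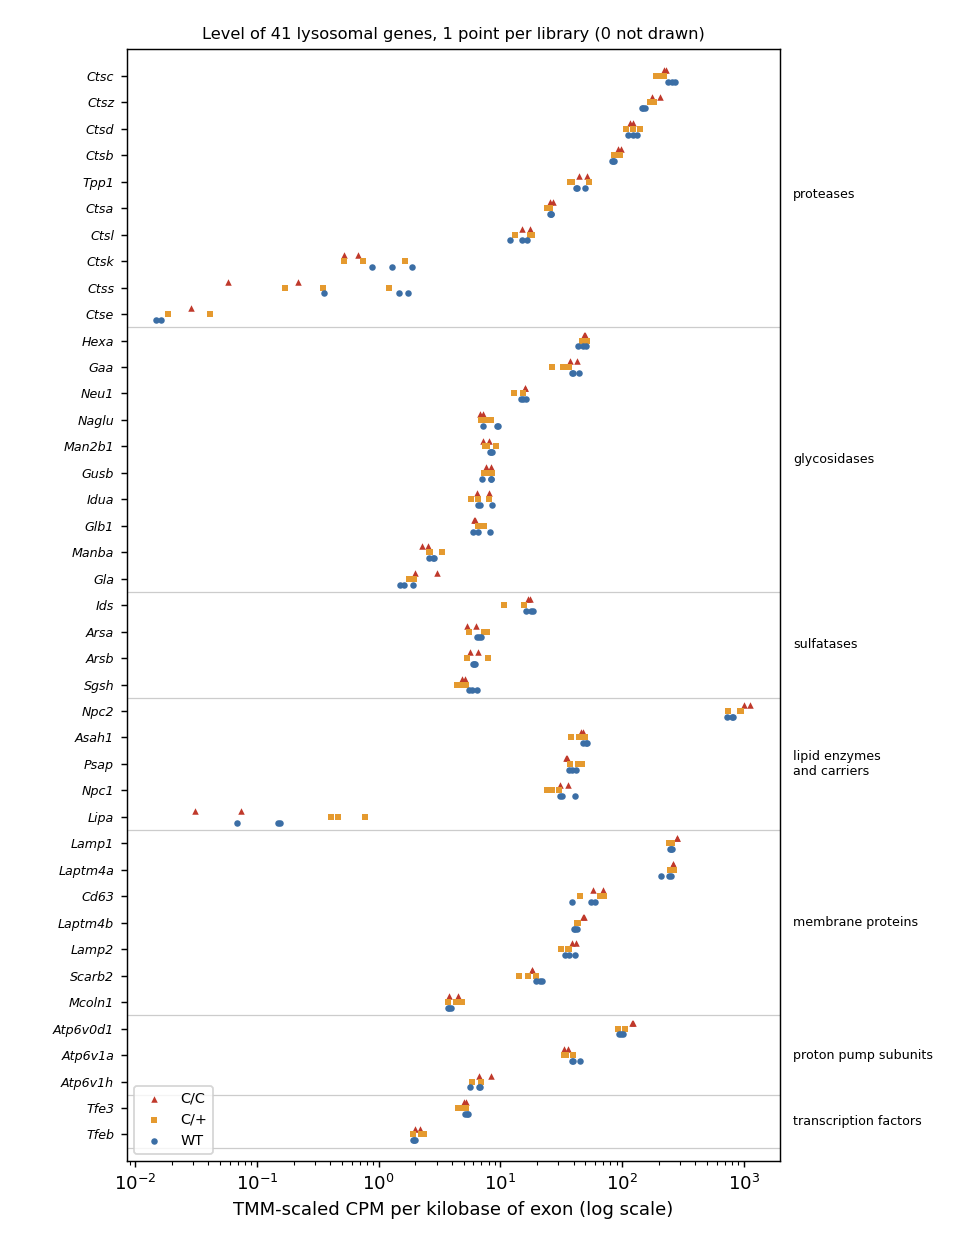
TMM-scaled CPM per kilobase of exon (log scale) of the 41 lysosomal genes in each library, sorted by role and by WT level, with C/C as red triangles, C/+ as orange squares and WT as blue circles. Points of the 3 groups lie close together for most genes, Npc2 is the highest, and Ctsk, Ctss, Ctse and Lipa sit far below the rest of their classes; libraries at 0 are not drawn.

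The cathepsins are the main lysosomal proteases, and 7 of the 10 protease genes stood at 77.9 CPM or more in every library. Ctsc, whose product (dipeptidyl peptidase 1) activates granule serine proteases in leukocytes, was the highest per length, at 226 ± 4.79 CPM per kilobase in C/C, 205 ± 15.1 in C/+ and 256 ± 14.8 in WT. Its libraries stood at 1295 and 1334 CPM in C/C, at 1171, 1113 and 1285 CPM in C/+, and at 1491, 1397 and 1568 CPM in WT. All C/+ values were below all WT values, yet the difference was not called (log2 fold change -0.32, SE 0.10, adjusted p = 0.105). DESeq2 did call it, at an adjusted p of 0.0157.

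Ctsz, a carboxypeptidase gene, stood at 255 and 297 CPM in C/C, 245, 253 and 264 CPM in C/+ and 209, 224 and 216 CPM in WT. Both reporter groups lay above WT without overlap, and C/C over WT had the smallest adjusted p of any uncalled member (log2 fold change 0.35, SE 0.10, adjusted p = 0.0877; 0.0258 by DESeq2). Ctsd, the major lysosomal aspartic protease, stood at 291 and 275 CPM in C/C, 291, 327 and 254 CPM in C/+ and 263, 291 and 313 CPM in WT. The 3 groups overlapped, and the 95% interval of C/C over C/+ ran from -0.32 to 0.24 on the log2 scale. The exons of Ctsd overlap those of Gm49369 on the same strand over 34.4% of their length, so its counts depend on how the authors assigned shared reads.

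Ctsb, a cysteine protease, averaged 579 ± 23.3 CPM in C/C, 549 ± 29.8 CPM in C/+ and 509 ± 8.55 CPM in WT. Ctsa, the protective protein of the sialidase complex, stood at 115 to 127 CPM in all 8 libraries. Ctsl, another cysteine protease, ranged from 77.9 to 118 CPM and Tpp1, a tripeptidyl peptidase, from 194 to 277 CPM, with overlapping groups. Of the exon length of Ctsl, 26.8% overlaps genes on the opposite strand. None of these 4 was called in any comparison, and their log2 fold changes lay between -0.05 and 0.19.

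The remaining 3 proteases were at or near 0. Ctsk, known from osteoclasts, stood at 1.03 and 0.782 CPM in C/C, 2.48, 0.793 and 1.12 CPM in C/+ and 1.96, 1.33 and 2.83 CPM in WT. Ctss, the cathepsin of antigen-presenting cells, stood at 0.298 and 0.0782 CPM in C/C, 1.66, 0.233 and 0.471 CPM in C/+ and 2.35, 1.99 and 0.483 CPM in WT. These values rest on 13 and 3 counts in C/C, 5 to 51 in C/+ and 26 to 91 in WT. C/C over WT for Ctss was not called by edgeR (log2 fold change -3.03, SE 0.97, adjusted p = 0.113), and DESeq2 called it (adjusted p = 0.0136). Ctse, an endosomal aspartic protease, had 4 and 0 counts in C/C, 4, 0 and 1 in C/+ and 2, 1 and 0 in WT. With a floor of 3 counts a library, a level of up to 0.176 CPM cannot be told from 0 in the shallowest library.

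Glycosidases remove sugars from glycoproteins, glycolipids and glycosaminoglycans. None of the 10 was called by edgeR or by DESeq2 in any comparison, and at an unadjusted p under 0.05 there was 1 in each. Over all tested genes 2.98% to 7.08% were called by edgeR and 20.1% to 22.1% had an unadjusted p under 0.05, so 0 and 1 of 10 are read as no result about the class. Hexa, the alpha subunit of hexosaminidase, was the highest per length, at 49.5 ± 0.572 CPM per kilobase in C/C, 49.7 ± 2.26 in C/+ and 47.5 ± 3.55 in WT. Its libraries stood at 98.03 and 99.6 CPM in C/C, 102, 93.9 and 102 CPM in C/+ and 87.4, 95.4 and 102 CPM in WT. The groups overlapped, and the interval of C/+ over WT ran from -0.13 to 0.26 on the log2 scale.

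Gaa, the acid alpha-glucosidase that degrades glycogen, stood at 180.0 and 203 CPM in C/C, 128, 155 and 174 CPM in C/+ and 211, 187 and 189 CPM in WT. C/+ lay below both other groups without overlap. Its log2 fold change was -0.36 for C/+ over WT (SE 0.12, adjusted p = 0.13) and 0.33 for C/C over C/+ (SE 0.13, adjusted p = 0.187). C/+ over WT was called with sex as a covariate (-0.45, adjusted p = 0.0164) and without the low-count filter (-0.38, adjusted p = 0.0461). Gla, the X-linked alpha-galactosidase, stood at 9.80 and 6.49 CPM in C/C, 6.33, 5.78 and 5.88 CPM in C/+ and 4.91, 5.27 and 6.29 CPM in WT. Both C/C libraries were above all others, by a small margin in C/C 2 (log2 fold change over WT 0.57, SE 0.22, adjusted p = 0.162).

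The other 7 glycosidases spanned 15.8 to 73.3 CPM over all libraries. Neu1, the lysosomal sialidase, averaged 59.2 ± 0.0282 CPM in C/C, 54.3 ± 4.83 CPM in C/+ and 57.4 ± 2.92 CPM in WT. Gusb, beta-glucuronidase, averaged 36.1 ± 2.45 CPM in C/C, 35.5 ± 3.02 CPM in C/+ and 36.2 ± 3.56 CPM in WT. Man2b1 and Manba (mannosidases), Glb1 (beta-galactosidase), Naglu and Idua (glycosaminoglycan breakdown) had log2 fold changes between -0.31 and 0.08 in the 3 comparisons.

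Among the sulfatases, Sgsh, Ids and Arsb act on glycosaminoglycans and Arsa on sulfatide. Ids, on the X chromosome, was the highest, at 86.1 and 89.7 CPM in C/C, 80.4, 54.5 and 79.2 CPM in C/+ and 91.4, 83.3 and 95.04 CPM in WT. C/+ lay below WT and C/C without overlap and had 1 low library, C/+ 2 (log2 fold change over WT -0.33, SE 0.14, adjusted p = 0.211). Sgsh averaged 22.03 ± 1.07 CPM in C/C, 21.04 ± 1.73 CPM in C/+ and 26.1 ± 2.08 CPM in WT, with C/+ below WT without overlap and no call (adjusted p = 0.158). Arsb was at 32.0 to 47.8 CPM and Arsa at 19.5 to 28.7 CPM, and their C/+ libraries enclosed the range of WT. Exons of genes on the opposite strand overlap 39.9% of the exon length of Arsb, 21.6% of Sgsh and 18.8% of Arsa, and without a stated strand setting their counts may include such reads. By edgeR 0 of 4 sulfatases were called in the 3 comparisons, where 2.98% to 7.08% of all tested genes were called, and DESeq2 called 0. At an unadjusted p under 0.05 there were 2, 0 and 0 for C/+ over WT, C/C over C/+ and C/C over WT. All tested genes gave 20.1%, 20.9% and 22.1%, and these counts are read as no result about the class.

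Npc2, the soluble cholesterol-binding protein of the late endosome and lysosome, was the most abundant member by far. It stood at 6148 and 5439.6 CPM in C/C, 5018, 5123 and 4059.8 CPM in C/+ and 3951, 4353 and 4468 CPM in WT. Both C/C libraries were above every other library, while C/+ and WT overlapped. The log2 fold change was 0.29 for C/C over C/+ (SE 0.13, adjusted p = 0.246) and 0.44 for C/C over WT (SE 0.13, adjusted p = 0.0901). DESeq2 called C/C over WT at an adjusted p of 0.0162. Per length Npc2 reached 1065 ± 92.1 CPM per kilobase in C/C, 870.5 ± 108 in C/+ and 783 ± 49.9 in WT, above 99.8% of tested genes in WT.

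Npc1, the membrane transporter that takes cholesterol over from NPC2, stood at 349 and 406 CPM in C/C, 272, 303 and 342 CPM in C/+ and 463, 352 and 363 CPM in WT. C/+ lay below the other groups without overlap, and neither difference was called (C/+ over WT -0.36, SE 0.13, adjusted p = 0.167). With sex as a covariate it was called at -0.46 (adjusted p = 0.0166). Asah1, acid ceramidase, averaged 159 ± 4.98 CPM in C/C, 149 ± 19.0 CPM in C/+ and 170.0 ± 7.35 CPM in WT. Psap, the precursor of the saposin activators, stood at 96.4 and 95.4 CPM in C/C, 120.1, 129 and 102 CPM in C/+ and 114, 106 and 100.3 CPM in WT. Both C/C libraries were the lowest, without a call (C/C over C/+ -0.29, SE 0.12, adjusted p = 0.189).

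Lipa, which hydrolyses cholesteryl esters and triglycerides in the lysosome, was the one member called by edgeR in the model described. Its libraries stood at 0.505 and 0.209 CPM in C/C, 5.26, 3.13 and 2.76 CPM in C/+ and 1.01, 1.04 and 0.465 CPM in WT. Every C/+ library was above every other library, and C/C and WT overlapped. Lipa fell in C/C, to 0.357 ± 0.210 CPM (SD, n = 2) against 3.71 ± 1.35 CPM in C/+ (SD, n = 3), a log2 fold change of -3.36 (SE 0.53, adjusted p = 0.00606). It rose in C/+, to 3.71 ± 1.35 CPM against 0.839 ± 0.324 CPM in WT (SD, n = 3 each), a log2 fold change of 2.18 (SE 0.44, adjusted p = 0.0314). C/C over WT was not called (-1.18, SE 0.55, adjusted p = 0.239). The level was low throughout. The counts were 22 and 8 in C/C, 161, 67 and 47 in C/+ and 39, 22 and 25 in WT, and its CPM per kilobase in WT lay above that of 8.37% of tested genes. The C/+ over WT call was lost without C/+ 1 (adjusted p = 0.114), C/+ 2 (0.0695), WT 2 (0.0795) or WT 3 (0.096), and the C/C over C/+ call without C/C 2 (0.0785).

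Markers of 4 other cell types moved in the same direction as Lipa in both comparisons in which it was called. Of 12 endothelial markers 11 fell in C/C against C/+ and 11 rose in C/+ against WT, and their summed level was 229 to 259 CPM in C/C, 668 to 1113 CPM in C/+ and 272 to 459 CPM in WT. Of 6 mesothelial markers 6 fell and 5 rose, with sums of 6.57 to 7.80 CPM in C/C, 64.5 to 190.03 CPM in C/+ and 8.51 to 29.3 CPM in WT. Of 9 tested mesenchymal markers, among 10 listed, 6 fell and 5 rose, with sums of 14.25 to 18.04 CPM in C/C, 82.1 to 224 CPM in C/+ and 16.5 to 41.4 CPM in WT. Of 8 club cell markers 6 fell and 6 rose, with sums of 490.3 to 719 CPM in C/C, 5132 to 9614 CPM in C/+ and 458 to 1104 CPM in WT. Between C/+ and WT, 0 of 8 ciliated markers were called by edgeR or DESeq2 (0 at an unadjusted p under 0.05), and their median log2 fold change was -0.15. Of 8 alveolar type 1 markers 1, Rtkn2, was called, and it was lower in C/+ (median -0.18). Of 12 tested leukocyte markers 0 were called by edgeR or DESeq2 (2 at an unadjusted p under 0.05, median -0.15). Between C/C and C/+, 7 of 8 ciliated markers were lower in C/C (median -0.86). EdgeR called 0 of these 8 and DESeq2 called 3, with 5 at an unadjusted p under 0.05 (20.9% of all tested genes). Of the 12 leukocyte markers 9 were lower in C/C (median -0.84), with 0 called by either tool. Of the alveolar type 1 markers edgeR called 1 higher and 1 lower in C/C (median -0.02). No marker of the first 4 lists was at 0 in all libraries of a group. C/+ 1 had the highest Lipa level and the highest mesothelial, mesenchymal and club sums. The part of these cell types in the Lipa result was not tested, and in bulk libraries a change in the share of a cell type and a change in RNA per cell cannot be told apart.

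**Figure D4:**
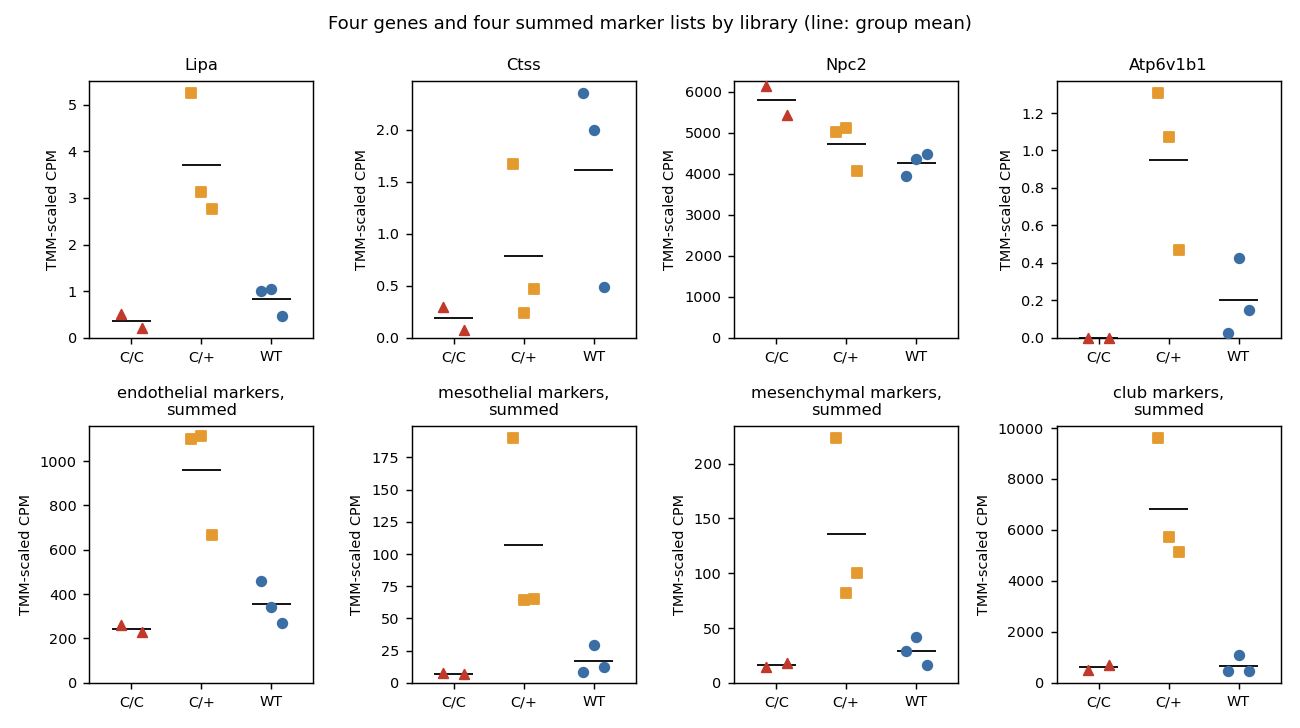
TMM-scaled CPM of Lipa, Ctss, Npc2 and Atp6v1b1 (upper row) and summed TMM-scaled CPM of 4 marker lists (lower row) in each library of C/C, C/+ and WT, with lines at group means. Lipa at 2.76 to 5.26 CPM and all 4 marker sums are highest in the C/+ libraries, whereas Npc2 is highest in the C/C libraries, at 5439.6 and 6148 CPM.

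The membrane proteins were led by Lamp1. Lamp1, the major glycoprotein of the lysosomal membrane, stood at 749 and 761 CPM in C/C, 649, 675 and 693 CPM in C/+ and 666, 675 and 693 CPM in WT. Both C/C libraries were the highest, and C/+ and WT covered nearly the same range. The difference was not called (C/C over C/+ 0.17, SE 0.10, adjusted p = 0.38; C/C over WT 0.16, SE 0.10, adjusted p = 0.384). Per length Lamp1 stood at 253 ± 5.04 CPM per kilobase in WT, and Laptm4a, a late endosomal transmembrane gene, at 235 ± 23.0, so that Ctsc, Lamp1 and Laptm4a did not differ beyond their spread.

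Laptm4a had 464 and 463 CPM in C/C, 451, 436 and 469.5 CPM in C/+ and 371, 447 and 434 CPM in WT, with WT 1 the lowest. Its relative Laptm4b had 94.1 and 93.1 CPM in C/C, 82.8, 82.9 and 83.4 CPM in C/+ and 78.9, 77.5 and 83.0 CPM in WT. C/C was above both other groups, by 0.17 over C/+ (SE 0.09, adjusted p = 0.294) and 0.23 over WT (SE 0.09, adjusted p = 0.153) on the log2 scale. Lamp2, an X-linked paralog of Lamp1 with a role in autophagy, averaged 384 ± 17.997 CPM in C/C, 331 ± 27.8 CPM in C/+ and 354 ± 33.8 CPM in WT. Cd63, a tetraspanin of late endosomes, varied within groups, at 211 and 258 CPM in C/C, 165 to 260.3 CPM in C/+ and 142 to 220.3 CPM in WT.

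Scarb2, which carries glucocerebrosidase to lysosomes, averaged 114 ± 0.438 CPM in C/C, 106 ± 16.9 CPM in C/+ and 131 ± 7.40 CPM in WT. C/+ over WT was -0.30 (SE 0.12, adjusted p = 0.178), and with sex as a covariate it was called at -0.38 (adjusted p = 0.0482). Mcoln1, a cation channel of the lysosomal membrane, was the lowest of the class, at 27.99 to 36.3 CPM over all libraries, with overlapping groups. By edgeR 0 of the 7 were called in any comparison, where 2.98% to 7.08% of all tested genes were called, and DESeq2 called 0. At an unadjusted p under 0.05 there were 1, 0 and 1 for C/+ over WT, C/C over C/+ and C/C over WT. All tested genes gave the same 20.1%, 20.9% and 22.1%, and these counts are read as no result about the class.

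Atp6v0d1, a subunit of the membrane sector of the vacuolar pump, stood at 218 and 217 CPM in C/C, 167, 189 and 189.9 CPM in C/+ and 169, 181 and 174 CPM in WT. Both C/C libraries were the highest (C/C over C/+ 0.26, SE 0.10, adjusted p = 0.165; C/C over WT 0.32, SE 0.10, adjusted p = 0.097), and DESeq2 called C/C over WT (adjusted p = 0.0363). Atp6v1a, the catalytic subunit, ran the other way, at 217 and 203 CPM in C/C, 202, 238 and 207 CPM in C/+ and 234, 241 and 274 CPM in WT. C/C was below WT without overlap and without a call (-0.25, SE 0.12, adjusted p = 0.239). Atp6v1h, a regulatory subunit, ranged from 55.2 to 82.3 CPM with overlapping groups.

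Tfeb was expressed at a low and even level, at 11.2 and 12.4 CPM in C/C, 13.3, 12.7 and 10.9 CPM in C/+ and 11.01, 10.96 and 11.4 CPM in WT. The 95% interval of C/C over C/+ ran from -0.39 to 0.26 and that of C/+ over WT from -0.14 to 0.44 on the log2 scale. Tfe3, on the X chromosome, stood at 47.0 and 48.6 CPM in C/C, 41.6, 46.4 and 48.0 CPM in C/+ and 49.1, 50.4 and 47.7 CPM in WT. Members with an E-box had a median log2 fold change of -0.01 in each of C/C over C/+ and C/+ over WT (13 tested), and members without one had 0.06 and -0.04 (22 tested). For C/C over WT the medians were -0.03 and -0.01.

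Other genes of the lysosome, from 5 lists of 110 genes chosen for their role, were called at shares that depend on the tool. Of 109 tested, 3 fell and 0 rose in C/C against C/+, 1 fell and 0 rose in C/+ against WT, and 1 rose and 0 fell in C/C against WT, all by edgeR. These are shares of 2.75%, 0.917% and 0.917%, against 7.08%, 3.92% and 2.98% of all tested genes. DESeq2 called 7 (6.42%) for C/C over C/+, 6 (5.5%) for C/+ over WT and 13 (11.9%) for C/C over WT. Over all tested genes its shares were at most 10.6%, 8.23% and 9.46%. Their median log2 fold changes were 0.04, -0.01 and 0.05. The abundant hydrolases Napsa and Ctsh stood at 3048 ± 172 and 1208 ± 5.34 CPM in C/C, 2795 ± 289 and 1127 ± 78.1 CPM in C/+ and 2758 ± 150 and 1111 ± 46.8 CPM in WT, and the membrane protein Lamp3 of lamellar bodies at 3192 ± 307 CPM in C/C, 2839 ± 537 CPM in C/+ and 2945 ± 184 CPM in WT. None of these 3 was called in any comparison. Abca3, listed with Lamp3, averaged 2619 ± 249 CPM in C/C, 2718 ± 189 in C/+ and 3298 ± 103 in WT. Both reporter groups lay below WT without overlap. EdgeR did not call C/C over WT (log2 fold change -0.33, SE 0.12, adjusted p = 0.13), and DESeq2 did (adjusted p = 0.0381). C/+ over WT was called by neither (-0.28, edgeR adjusted p = 0.164). These genes were all picked out after their values were seen, for their abundance.

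Of the 5 genes of these lists called by edgeR, 3 were below 5 CPM in every library. Atp6v1b1, the pump subunit isoform known from kidney intercalated cells, had 0 CPM in both C/C libraries, 1.31, 1.07 and 0.471 CPM in C/+ and 0.0259, 0.427 and 0.149 CPM in WT, and fell at least 12.9-fold in C/C against C/+ (adjusted p = 0.0195), with a floor of 3 counts per C/C library. Atp6v0e2, an isoform of a small membrane-sector subunit, fell to 0.848 ± 0.128 CPM in C/C against 3.65 ± 1.01 CPM in C/+ (log2 fold change -2.11, SE 0.36, adjusted p = 0.00731). Ppt2, a lysosomal thioesterase gene, fell to 0.230 ± 0.228 CPM in C/C against 1.98 ± 0.513 CPM in C/+ (log2 fold change -3.11, SE 0.72, adjusted p = 0.0328). These 3 genes had their highest values in C/+, as did Lipa and the marker sums plotted with it. Atp6v0e, the widespread isoform, rose to 83.4 ± 9.001 CPM in C/C against 56.9 ± 2.62 CPM in WT (log2 fold change 0.55, SE 0.10, adjusted p = 0.0284). Igf2r, the receptor that carries mannose 6-phosphate-tagged hydrolases to the lysosome, fell to 88.0 ± 5.05 CPM in C/+ against 116 ± 10.3 CPM in WT (log2 fold change -0.40, SE 0.09, adjusted p = 0.0447).

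**Figure D5:**
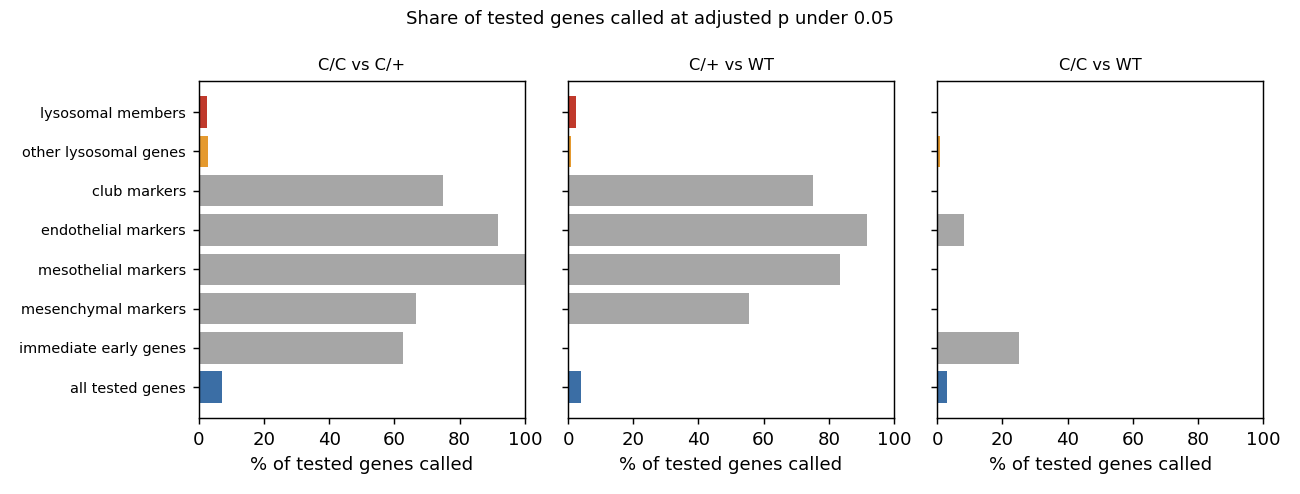
Percentage of tested genes called by edgeR at an adjusted p under 0.05 in each comparison, for the 40 lysosomal members, 109 other lysosomal genes, 5 marker and stress lists and all 14906 tested genes. The lysosomal bars stay at 2.75% or less in every comparison, against 7.08%, 3.92% and 2.98% of all tested genes, while the endothelial and mesothelial bars reach 91.7% and 100% for C/C against C/+.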

How the data were processed

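The deposited table holds whole-number read counts per gene, not normalised by the authors, for 43432 mouse Ensembl genes in 8 libraries. Per the labels' protocols, RNA came from spin columns with DNase treatment and libraries from a stranded mRNA kit. The submitters' processing notes name STAR 2.4.2a, DESeq2 and the build GRCh38, which is human. How reads were counted, on which strand and with which annotation is not given in the sources used here, which bears on the 14 members whose exons overlap another gene. Symbols, positions and exon lengths were taken from GENCODE M21 (GRCm38), and promoter windows from RefSeq GRCm38.p6, of which 37 of 40 end in bases of a GENCODE transcript of the gene. 

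The low-count filter was filterByExpr and the scaling TMM. All 8 libraries entered 1 edgeR 4.0.16 quasi-likelihood model (R 4.3.3) with 3 group means. Calls have a Benjamini-Hochberg adjusted p under 0.05 over 14906 genes, two-sided. Counting error shrinks as counts rise, and at high counts the spread between libraries mainly sets the precision. Members at a few CPM carry more counting error, such as Gla (100 to 194 counts in C/+) and Tfeb (186 to 408). No 2 libraries of a group were alike within sampling noise (11.8 to 71.4 as chi-square per gene). The alternatives were DESeq2 1.42.0, its size factors, other filters, the compared groups alone, a replicate block, sex as a covariate and leaving out each library. Sex was read from Xist and Ddx3y, as the labels give none. Members and lists were chosen with earlier results of these data known. Values per library are given for called members, 4 markers (Ctsd, Lamp1, Npc2, Tfeb), the 2 highest of each role per length and members near 0, with others added after their values were seen.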

Additional observations from a re-analysis of the deposited data

How the results depend on the processing

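Of 1797 fold changes of members recomputed under 15 alternatives, 0 calls changed direction. Of 1754 where neither fit made a call, 95 differed in sign. A further 5, all of Lipa and all from leaving out 1 library, lost a call, and 13 gained one. The number of members called between C/+ and WT was 2 without a low-count filter (Lipa and Gaa), 2 by DESeq2 (Lipa and Ctsc) and 5 with sex as a covariate (Lipa, Gaa, Sgsh, Npc1 and Scarb2), and 0 to 1 with 1 library left out. Between C/C and C/+ it was 0 to 1 with 1 library left out. Between C/C and WT it was 1 without a low-count filter (Ctss), 4 by DESeq2 (Ctss, Ctsz, Npc2 and Atp6v0d1), 1 with sex as a covariate (Npc2) and 0 to 1 with 1 library left out. Over all genes the calls between C/+ and WT numbered 585, and 1299 without a low-count filter, 1227 by DESeq2, 356 with the compared groups alone, 1700 with sex as a covariate and 103 (without C/+ 1) to 729 (without C/+ 3) with 1 library left out. Between C/C and C/+ they numbered 1056, and 1614 without a filter and 185 (without C/C 1) to 1308 (without WT 1) with 1 library left out. Between C/C and WT they numbered 444, and 1456 without a filter, 1410 by DESeq2, 1348 with sex as a covariate and 30 (without C/C 1) to 782 (without C/+ 3) with 1 library left out. The cause of these differences was not tested. The members' median log2 fold change with 1 library left out ranged from 0.017 to 0.100 for C/C over C/+, from -0.028 to 0.021 for C/+ over WT and from -0.062 to 0.054 for C/C over WT; it was 0.048 for C/C over C/+ with a filter of 1 CPM in 5 libraries, and the cause was not tested. Of 42 role sums recomputed with the longest transcript's length or total-count scaling, 32 moved by more than 1 SD. With the longest transcript, glycosidases and pump subunits summed to 180 and 179 CPM per kilobase in WT.

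Same-numbered libraries did not deviate together (correlations -0.21 to 0.087), so the numbers are not read as pairs. With a replicate block the count between C/C and WT was 176, and the members' calls were as without it. Depth limits Ctse, Ctsk, Ctss and Lipa most, and Gla and Tfeb to a lesser degree. The 2 libraries in C/C limit every comparison with that group.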
